A study of Mus musculus with 3 samples.

Results

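Cubilin, megalin and the proteins that work with them are described here across 3 segments of the embryonic mouse gut. The members are 5 genes, Cubn, Amn, Lrp2, Dab2 and Lrpap1, taken by gene name from a table of 33762 features, in which those names stand on 6 rows. They were chosen with their values in these libraries already known, so every level and fold below describes the libraries and tests nothing. RNA came from the caecum, the colon and the presumptive ileum of wild-type Bl6/C57 embryos at E13.5, with 1 sample per segment, and the ileum is the last of 3 equal portions into which the small intestine was cut. All samples share strain, genotype and age, and no treatment is named. The labels do not say how many embryos gave each sample.

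Cubilin and megalin are large receptors that take up proteins, vitamins bound to their carriers and lipoproteins from the space outside an epithelial cell. Cubilin, the product of Cubn, has no membrane span of its own, and amnionless, the product of Amn, anchors it and carries it to the apical surface. Megalin, the product of Lrp2, belongs to the LDL receptor family and spans the membrane, Dab2 is an adaptor that links receptor tails to clathrin, and Lrpap1 encodes RAP, a chaperone of the LDL receptor family in the endoplasmic reticulum. In fetal mammals the route is best known from the visceral endoderm of the yolk sac, the proximal tubule of the kidney and the absorptive cells of the intestine before weaning.

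The libraries held 64439972 counts in the caecum, 50773032 in the colon and 50079916 in the ileum. Each segment has a pair of columns, labelled replicate 1 and 2 in the headers but belonging to 1 sample. Their mean squared difference was 0.456 to 0.463 times the counting variance, so they were read as 1 library and averaged. No difference below therefore has a replicate check, no test across samples was possible, and the intervals in brackets cover counting error only. Levels are the authors' RPKM, which are per length of gene model, and folds are ratios of scaled counts. The 3 comparisons share libraries and are not independent of each other. In bulk tissue, fewer cells of a type and less RNA per cell cannot be told apart.

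The 5 genes did not share 1 profile along the gut. Cubn was about as abundant in the caecum as in the ileum and much lower in the colon. Amn was low in both the caecum and the colon, and highest in the ileum. Lrp2 ran the other way and was highest in the colon. Dab2 and Lrpap1 were more abundant than any of the receptor genes and differed little between segments.

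**Figure D1:**
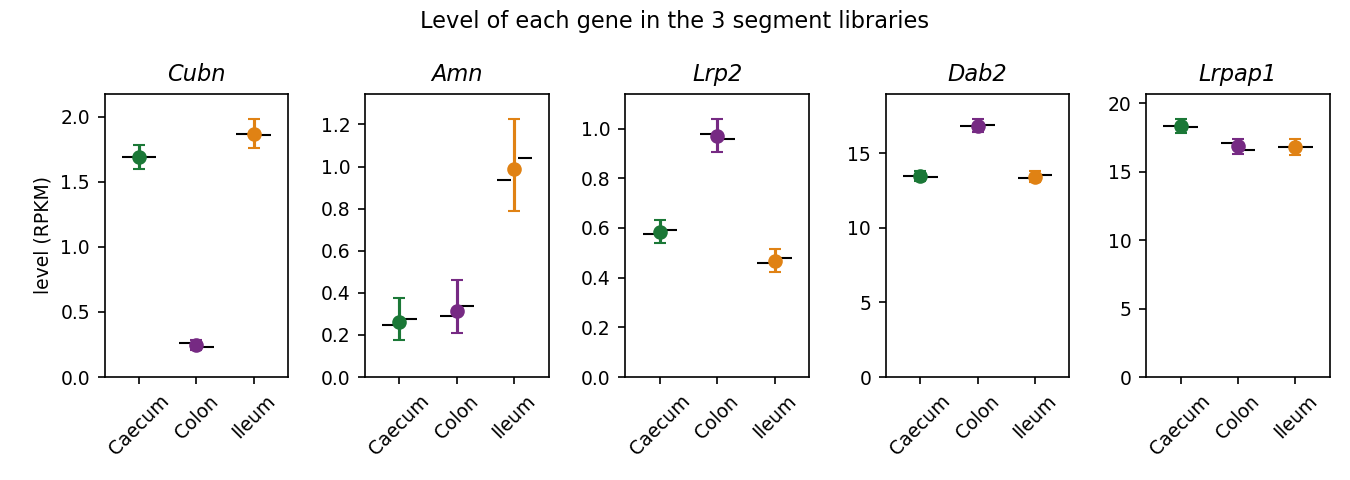
Level of each gene in RPKM (vertical axis from 0, scaled per panel) in the caecum, colon and ileum libraries. Points are the mean of the 2 deposited columns, black ticks each column, and bars 95% Poisson intervals of the counts. Cubn stands at 0.245 RPKM in the colon, against 1.69 in the caecum and 1.87 in the ileum. Amn is highest in the ileum and Lrp2 in the colon.

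Cubn, the ligand-binding receptor (ENSMUSG00000026726, mm9 chr2:13197965-13413551, minus strand), had 1.69 RPKM in the caecum, 0.245 RPKM in the colon and 1.87 RPKM in the ileum. These levels rest on 1284, 147 and 1104 counts in the same order. The colon was the low library, and its count columns, at 155 and 139, lay far below those of the caecum, at 1285 and 1283, and of the ileum, at 1103.5 and 1104.5. Cubn was 6.86-fold (5.78 to 8.19) higher in caecum than in colon and 7.70-fold (6.48 to 9.21) lower in colon than in ileum. Between caecum and ileum the fold was 0.891 (0.821 to 0.966), a difference beyond counting error but within 2-fold. In rank, the Cubn level lay above 44.4% of the features detected in the caecum, 25.9% of those in the colon and 44.6% of those in the ileum. Gm13270, a predicted gene on the other strand, overlaps the Cubn span, and had 18, 6 and 20 counts in the caecum, colon and ileum. Without a stated use of strand, reads of such a pair cannot be told apart.

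Amn, the membrane anchor of cubilin (ENSMUSG00000021278, mm9 chr12:112509322-112514637, plus strand), had 0.262 RPKM in the caecum, 0.316 RPKM in the colon and 0.989 RPKM in the ileum. It was the most sparsely counted of the 5, with 29, 27 and 84 counts in the same order. Here the caecum stood with the colon, not with the ileum. Amn was 3.78-fold (2.45 to 5.99) lower in caecum than in ileum and 3.19-fold (2.05 to 5.12) lower in colon than in ileum. For the caecum over the colon the fold was 0.843 (0.482 to 1.48), and a difference of that size was not detectable at this depth.

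The balance between the transcripts of receptor and anchor therefore differed in each segment. On the RPKM scale Cubn was 6.42 times Amn in the caecum, 0.776 times Amn in the colon and 1.89 times Amn in the ileum. In the colon their counting intervals overlapped, at 0.207 to 0.288 RPKM for Cubn and 0.208 to 0.459 RPKM for Amn. Which of them was higher there is not settled. The caecum library had nearly the ileum's level of the receptor transcript with about the colon's level of the anchor transcript. The colon was low in both.

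Lrp2, the megalin gene (ENSMUSG00000027070, mm9 chr2:69262397-69424122, minus strand), had 0.584 RPKM in the caecum, 0.969 RPKM in the colon and 0.467 RPKM in the ileum, from 629, 822 and 391 counts. The order colon, caecum, ileum is the reverse of that of Cubn. Lrp2 was 2.05-fold (1.82 to 2.32) higher in colon than in ileum, and its fold was 1.23 (1.08 to 1.40) for the caecum over the ileum. For the caecum over the colon the fold was 0.601 (0.541 to 0.667). The colon excess over the ileum sits at the 2-fold line, since the first count column alone gave 2.11-fold and the second 1.99-fold. Per length, Lrp2 was 0.346 times Cubn in the caecum, 3.95 times Cubn in the colon and 0.251 times Cubn in the ileum. The Lrp2 transcript was thus the more abundant of the pair in the colon only among these 3 libraries. Protein was not measured.

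The start regions of these receptor genes differ in base composition and are shown here, but no link to the levels was tested. They come from RefSeq on GRCm38.p6, a build other than that of the table, and run 250 bases up to the annotated start on the strand of the gene, with each CpG in capitals. They lie at chr2:13491877-13492126 on the minus strand for Cubn, at chr12:111270846-111271095 on the plus strand for Amn and at chr2:69586030-69586279 on the minus strand for Lrp2.
Cubn: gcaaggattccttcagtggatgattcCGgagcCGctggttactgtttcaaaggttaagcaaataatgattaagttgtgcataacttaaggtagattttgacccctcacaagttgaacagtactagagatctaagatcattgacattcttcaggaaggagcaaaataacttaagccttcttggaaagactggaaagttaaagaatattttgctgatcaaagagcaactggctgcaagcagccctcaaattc
Amn: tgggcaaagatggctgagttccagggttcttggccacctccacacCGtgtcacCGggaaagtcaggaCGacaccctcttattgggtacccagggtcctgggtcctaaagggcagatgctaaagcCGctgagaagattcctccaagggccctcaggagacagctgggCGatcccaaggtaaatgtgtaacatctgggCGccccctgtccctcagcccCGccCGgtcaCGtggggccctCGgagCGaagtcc
Lrp2: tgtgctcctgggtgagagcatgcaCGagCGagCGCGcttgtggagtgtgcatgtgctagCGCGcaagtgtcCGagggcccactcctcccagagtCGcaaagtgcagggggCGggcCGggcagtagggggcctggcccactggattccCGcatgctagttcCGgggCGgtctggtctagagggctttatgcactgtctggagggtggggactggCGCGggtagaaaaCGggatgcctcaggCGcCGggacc
The Cubn sequence holds 2 CpG in these 250 bases, against 11 for Amn and 18 for Lrp2. Over the full 300-base window, which adds 50 bases after the start, Cubn had 5 CpG and 44.3% G and C, Amn 15 CpG and 62.3%, and Lrp2 20 CpG and 65%. The median of 32851 promoter windows was 7 CpG and 52.7%. Lrpap1 had 18 CpG, and the 2 windows listed for Dab2 had 2 and 19. The 300-base windows were searched on both strands for 4 short motifs, and the windows of Cubn, Amn, Lrp2 and Lrpap1 held none. The nuclear receptor HNF4 motif, CAAAGTCCA, stands in 0.475% of all windows. For the homeobox factor HNF1 the letters GTTAAT were used, which stand in 7.10% of windows and in the CpG-rich window of Dab2. The letters AGATAAG, for GATA factors, stand in 3.04% of windows and in the CpG-poor window of Dab2. For CDX factors CCATAAA was used, found in 2.75% of windows.

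Dab2, the clathrin adaptor (ENSMUSG00000022150, mm9 chr15:6249788-6390712, plus strand), had 13.46 RPKM in the caecum, 16.87 RPKM in the colon and 13.44 RPKM in the ileum, from 6370, 6289 and 4944 counts. It was slightly more abundant in the colon, with a fold of 1.24 (1.20 to 1.29) for the colon over the ileum and of 0.795 (0.768 to 0.823) for the caecum over the colon. For the caecum over the ileum the fold was 0.987 (0.951 to 1.02), within counting error. A further row named Dab2 (ENSMUSG00000079102, mm9 chr15:6279556-6287206), which lies inside the same span, had 0 counts in all 3 libraries, where up to 3 counts would still be allowed, and no fold is given for it. Dab2 stood at 7.98 times the RPKM of Cubn in the caecum, 68.8 times in the colon and 7.21 times in the ileum. Dab2 is also known from macrophages, endothelium and mesenchyme, and the libraries are of whole gut.

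Lrpap1, the chaperone (ENSMUSG00000029103, mm9 chr5:35434139-35448415, minus strand), was the flattest of the 5, at 18.3 RPKM in the caecum, 16.8 RPKM in the colon and 16.8 RPKM in the ileum. Its folds were 1.07 (1.03 to 1.12) for the caecum over the ileum, 1.08 (1.04 to 1.13) for the caecum over the colon and 0.991 (0.946 to 1.04) for the colon over the ileum. Together Dab2 and Lrpap1 made up most of the summed RPKM of the 5 genes, with Lrpap1 at 53.4% in the caecum, 47.8% in the colon and 50.1% in the ileum. Cubn made up 4.91% of that sum in the caecum, 0.695% in the colon and 5.56% in the ileum.

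A gene was counted as apart at 2-fold or more, and entered the count where 1 of the compared libraries held 20 counts or more. For the caecum over the ileum, Amn was apart and lower, 1 of 5 members, where 2.55% of 17827 genes were 2-fold lower, 4.57% higher and 7.12% either way. For the caecum over the colon, Cubn was apart and higher, 1 of 5, where 4.97% of 17900 genes were higher, 2.78% lower and 7.75% either way. For the colon over the ileum, Cubn and Amn were lower and Lrp2 higher, 3 of 5, where 4.20% of 17579 genes were lower, 4.05% higher and 8.25% either way. The members were picked on these contrasts, so their share is not read against those of all genes. The median log2 fold of the 5 was -0.02, -0.25 and -0.01 in the same order of comparisons, beside 0.0034, -0.0026 and 0.0016 over all genes tested.

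**Figure D2:**
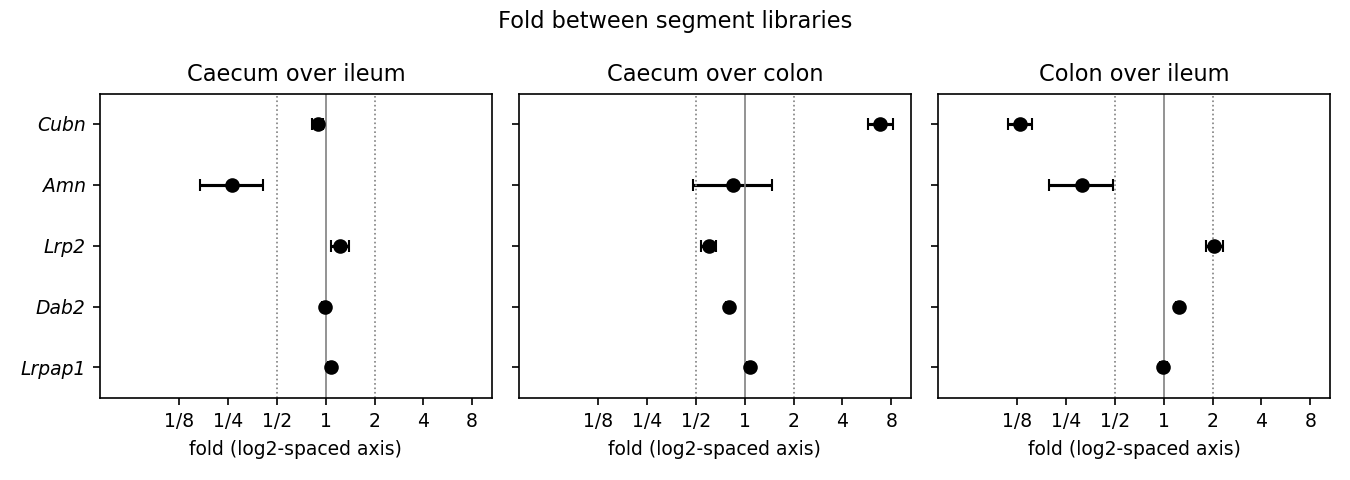
Fold of each gene for the caecum over the ileum, the caecum over the colon and the colon over the ileum, on an axis spaced by log2, with 95% counting intervals as bars and dotted lines at 2-fold. Cubn passes 2-fold where the colon is compared, Amn where the ileum is compared, and Lrp2 reaches 2.05-fold for the colon over the ileum.

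Epithelial genes went both ways between colon and ileum. The summed RPKM of 18 epithelial genes, among them Epcam, Cdh1 and Krt8, was 350.7, 399.7 and 342.1 in the caecum, colon and ileum. For the colon over the ileum, 2 of 18, Krt19 and Foxa2, were 2-fold or more higher and 0 lower. Of all genes, 4.05% were higher and 4.20% lower there. By counting interval 11 of the 18 lay above 1 and 6 below 1 in that comparison, and those below 1 were Epcam, Cldn7, Esrp1, Elf3, Vil1 and Cdx2. Elf3, an epithelial transcription factor, had a fold of 0.561 (0.497 to 0.632) and Vil1, the villin gene of the brush border, named after its values were seen, one of 0.710 (0.657 to 0.766). Set against that sum, Cubn was 7.84-fold higher in caecum than in colon and 8.90-fold lower in colon than in ileum. On the same scale Amn was 3.86-fold lower in the caecum and 3.66-fold lower in colon than in ileum. Lrp2 came to 1.77-fold higher in colon than in ileum on this scale, under the 2-fold line. Epcam, which encodes an epithelial adhesion molecule, had 38.75, 36.31 and 49.99 RPKM in the caecum, colon and ileum. Scaled to Epcam, Cubn was 5.53-fold lower in colon than in ileum and Amn 2.28-fold lower, while Lrp2 was 2.85-fold higher. The part of epithelial content in these differences was not tested.

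Markers of other cell types moved with some of these differences. Genes of enteric neurons and glia, 10 in the list, summed to 220.0 RPKM in the caecum, 114.0 RPKM in the colon and 208.6 RPKM in the ileum, with none at 0 counts. Of these, 6 of 9 with enough counts were 2-fold or more lower in colon than in ileum, as Cubn was, beside 4.20% of all genes. Among the 6 was Prph, an intermediate filament gene of neurons, at 5.37-fold (4.63 to 6.24). The part of the neuron and glia list in the Cubn result was not tested. Genes of mesothelium, 8 in the list, ran with Lrp2 at 122.4, 144.0 and 93.3 RPKM in the caecum, colon and ileum. That order was not particular to mesothelium. The epithelial sum had it too, at 350.7, 399.7 and 342.1 RPKM, as did that of the kidney genes below. Of the mesothelium genes, 2 of 8, Msln and Krt19, were 2-fold or more higher in colon than in ileum, beside 4.05% of all genes. Krt19 is also in the epithelial list. The part of the mesothelium list in the Lrp2 result was not tested.

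Genes of kidney, where these receptors are abundant, were near 0 in part and counted in part. Of 16 genes of nephric duct and kidney, Slc34a1, the phosphate transporter of the proximal tubule, had 0, 1 and 0 counts in the caecum, colon and ileum. Pax8, a factor of renal tubules, had 3, 6 and 9 counts in the same order. Slc5a2, a glucose transporter of the proximal tubule, was not near 0, at 1.67, 1.67 and 1.94 RPKM, a level like that of Cubn in the caecum and ileum. Wnt11, a signalling gene of the ureteric bud and other tissues, had 1.74, 1.58 and 1.63 RPKM. Cdh16 had 98, 46 and 46 counts and Fxyd2 64, 31 and 15, both named after their values were seen. Counts of Calb1 were 53, 5 and 56 in the same order, lowest in the colon as those of Cubn were. The Calb1 fold for the caecum over the colon was 8.32 (3.35 to 26.7). For the colon over the ileum it was 0.0871 (0.0272 to 0.216). Pax2 was also lowest in the colon, with counts of 25, 2 and 5. The list summed to 8.22, 16.1 and 4.54 RPKM, and Six2, which nephron progenitors share with other mesenchyme, gave most of the colon value at 3.05, 11.9 and 0.0237 RPKM. Of the list, 3 of 7 genes with enough counts were 2-fold or more higher in caecum than in ileum and 0 lower. Of all genes, 4.57% were higher and 2.55% lower there. In caecum against colon, 2 of 7 were higher and 1 lower, beside 4.97% and 2.78%. In colon against ileum, 2 of 6 were higher and 1 lower, beside 4.05% and 4.20%. In that list 3, 4 and 3 genes had 0 counts, and its part in the receptor levels was not tested. Macrophage genes, which bear on Dab2, were 2-fold or more apart between colon and ileum in 0 of 14 cases, beside 8.25% of all genes. The macrophage list summed to 32.1, 31.0 and 27.7 RPKM. For the caecum over the colon 1 of 14 was apart, beside 7.75% of all genes. It was Lyz2, a lysozyme gene, 2.77-fold (2.30 to 3.35) lower in caecum. The fold of Lyz2 was 1.57 (1.32 to 1.86) for the colon over the ileum, so it was highest in the colon as Dab2 was. By counting interval, 5 of the 14 lay above 1 and 2 below 1 for the caecum over the colon, where Dab2 lay below 1. The list median was 0.21 on the log2 scale in that comparison. Endothelial genes summed to 68.5, 82.6 and 70.0 RPKM, also highest in the colon. By counting interval, 0 of 12 lay above 1 and 11 below 1 for the caecum over the colon, where Dab2 lay below 1. For the colon over the ileum 10 lay above 1, as Dab2 did, and 2 below 1. The medians of the endothelial list in these comparisons were -0.27 and 0.19 on the log2 scale. The part of the macrophage and endothelial lists in the Dab2 level was not tested. Genes of mesenchyme, 11 in the list, summed to 896.2, 906.3 and 946.2 RPKM. Of these, 2 were 2-fold or more higher in caecum than in colon, beside 4.97% of all genes. They were Lum and Dcn, which encode proteoglycans of the matrix. Lum alone was lower in colon than in ileum, beside 4.20% of all genes. Lum had 45.8, 7.21 and 85.3 RPKM and was 6.32-fold (5.86 to 6.83) higher in caecum than in colon and 11.95-fold (11.10 to 12.89) lower in colon than in ileum. Dcn had 29.7, 13.1 and 23.9 RPKM. Both were lowest in the colon, as Cubn was. By counting interval, 4 of the 11 mesenchyme genes lay above 1 and 6 below 1 for the caecum over the colon. For the colon over the ileum 5 lay above 1 and 5 below 1. The part of Lum, Dcn and the rest of that list in the Cubn result was not tested.

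In the machinery that the receptors feed into, few genes were apart, beside 7.12%, 7.75% and 8.25% of all genes either way for the caecum over the ileum, the caecum over the colon and the colon over the ileum. The counts of these short lists are near that background and are not read as particular to them. Among 21 genes of the clathrin coat, 0 were 2-fold or more apart for the caecum over the colon or the colon over the ileum, and 1, Epn3, an epsin of epithelia, was higher in caecum than in ileum at 2.26-fold (1.87 to 2.75). Picalm, a clathrin assembly protein, had 91.2, 92.5 and 94.6 RPKM in the caecum, colon and ileum. Of 15 genes of endosome acidification and recycling with enough counts, 0 were 2-fold apart in any comparison, and Rab7, the late endosome GTPase, had 131, 120 and 129 RPKM. Of 21 lysosomal genes, 1 was apart, Ctsh, a cysteine protease, at 2.08-fold (1.82 to 2.37) for the caecum over the ileum. Neu1, the lysosomal sialidase, stayed within 2-fold, at 10.4, 5.77 and 7.80 RPKM.

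Other adaptors and relatives of megalin departed in single cases. Of all genes, 4.57% were 2-fold or more higher and 2.55% lower for the caecum over the ileum. These shares were 4.97% and 2.78% for the caecum over the colon, and 4.05% and 4.20% for the colon over the ileum. Of 12 adaptors and motors, Dab1, the neuronal relative of Dab2, was 2.95-fold (2.65 to 3.29) higher in caecum than in ileum. Mapk8ip2, a JNK scaffold, was low in the colon, at 1.42, 0.477 and 1.42 RPKM in the caecum, colon and ileum, and was 2.96-fold (2.45 to 3.60) higher in caecum than in colon. Of 17 members of the LDL receptor family and sorting receptors, Sorcs1 and Sorcs3 were the 2 that were 2-fold or more higher in caecum than in ileum. Sorcs3, at 103, 9 and 19 counts, was also 8.98-fold (4.55 to 20.2) higher in caecum than in colon. For the colon over the ileum, Lrp11 was 2.17-fold (1.90 to 2.49) lower and Lrp1b, named after its values were seen, 2.24-fold (1.65 to 3.08) higher. Lrp6 and Lrp1, abundant receptors of the list, stayed within 2-fold in every comparison, with Lrp6 at 19.5, 19.6 and 16.7 RPKM and Lrp1 at 14.2, 15.3 and 12.1 RPKM in the caecum, colon and ileum. The medians of these 5 lists lay between -0.05 and 0.17 on the log2 scale in the 3 comparisons.

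**Figure D3:**
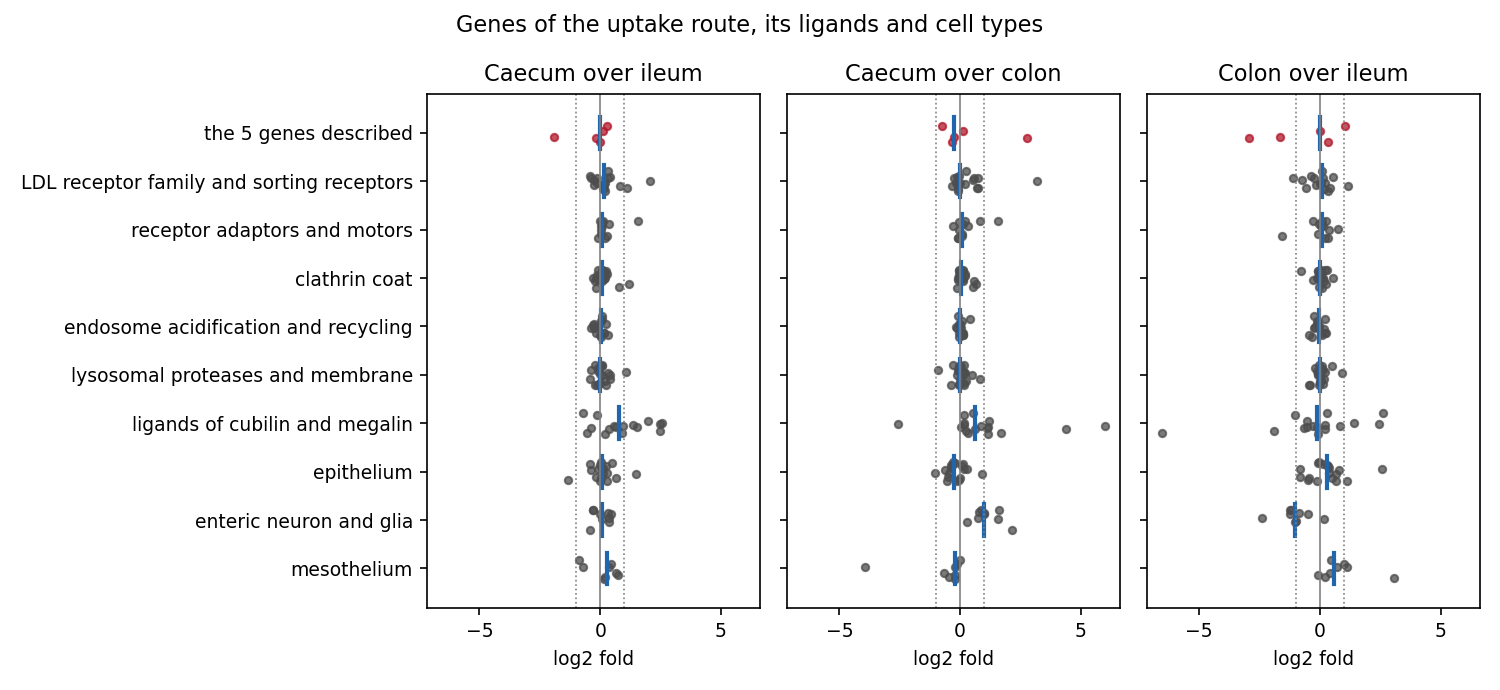
Log2 fold of each gene that reached 20 counts, by list, for the caecum over the ileum, the caecum over the colon and the colon over the ileum. Blue bars are list medians, dotted lines mark 2-fold, and the 5 genes described are in red on top. Coat, endosome and lysosome genes lie close to 0, while ligands and the neuron and glia list spread or shift.

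Transcripts for proteins that cubilin or megalin are reported to bind were most abundant in the caecum, with a summed level of 225.1 RPKM there, 118.3 RPKM in the colon and 120.5 RPKM in the ileum. Of 23 such genes, 6 of 16 with enough counts were 2-fold or more higher in caecum than in ileum and 0 lower. Of all genes, 4.57% were higher and 2.55% lower there. Against the colon, 7 of 17 were higher in caecum and 1, Alb, lower, beside 4.97% and 2.78% of all genes. The list was chosen with earlier results of these data known, so its counts are not read against those shares. Alb, the serum albumin gene, had 8, 37 and 6 counts in the caecum, colon and ileum and was named after its values were seen. The list median was 0.77 and 0.61 on the log2 scale in these comparisons, and -0.11 for the colon over the ileum. In the latter, 3 of 16 were higher and 3 lower, beside 4.05% and 4.20% of all genes. Rbp4, the retinol carrier, had 40.6, 1.96 and 7.24 RPKM in the caecum, colon and ileum. Clu, or apolipoprotein J, had 10.5, 4.65 and 1.73 RPKM. Afp, alpha-fetoprotein, was shared by caecum and colon at 23.4 and 22.7 RPKM, against 4.14 RPKM in the ileum.

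Apob was the ligand gene with the lowest colon level relative to the ileum, and Cubn was also low there. Apob, the protein of lipoprotein particles, had 3.41, 0.0537 and 4.89 RPKM in the caecum, colon and ileum. Apoe, a further lipoprotein gene, stayed within 2-fold, at 34.3, 19.0 and 23.1 RPKM, as did Bmp4, a signalling ligand reported to bind megalin, for each pair. Shh, another signalling ligand of megalin, named after its values were seen, had 13.8, 11.0 and 22.3 RPKM and was 2.04-fold (1.92 to 2.17) lower in colon than in ileum. Gif, the gene of intrinsic factor, which carries vitamin B12 to cubilin and was likewise named after its values were seen, had 0, 2 and 0 counts. The ligand list shares 6 genes with the yolk sac list, Afp, Apoa1, Apob, Rbp4, Trf and Ttr. The yolk sac list summed to 119.9, 62.6 and 53.0 RPKM in the caecum, colon and ileum. In caecum against ileum, 5 of 13 genes were higher and 1, Pla2g12b, a phospholipase gene, lower. Of all genes, 4.57% were higher and 2.55% lower in that comparison. In caecum against colon, 6 of 13 yolk sac genes were higher and 1 lower, beside 4.97% and 2.78% of all genes. In colon against ileum, 1 of 12 was higher and 3 lower, beside 4.05% and 4.20%. The part of the yolk sac list in the ligand and receptor levels was not tested.

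**Figure D4:**
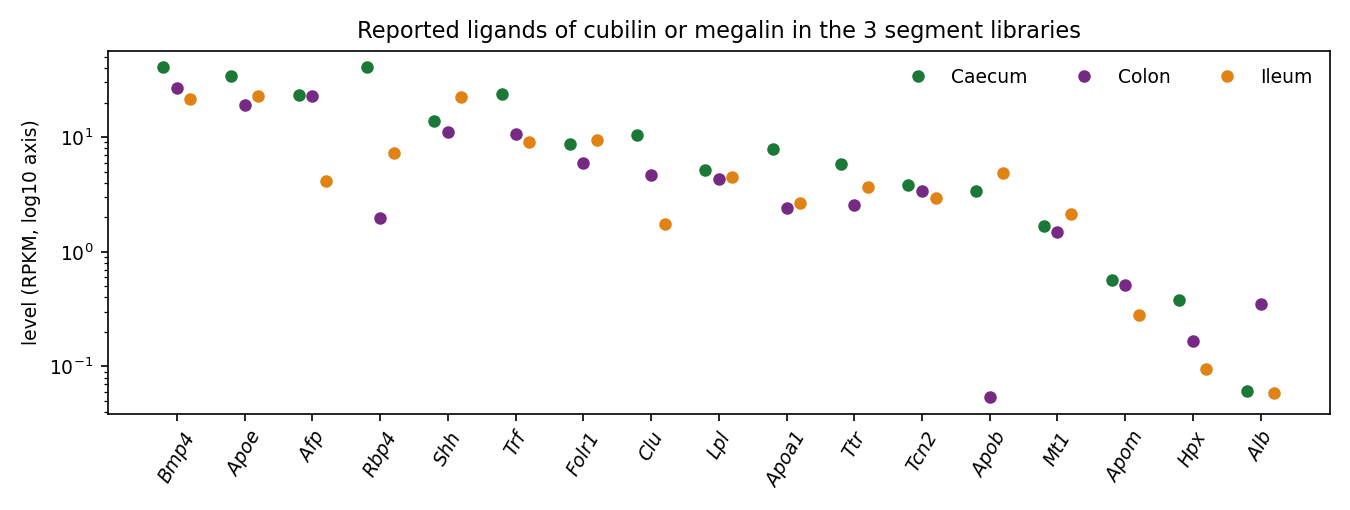
Level in RPKM, on a log10 axis, of reported cubilin and megalin ligands with at least 20 counts in a library, ordered by mean level, in the caecum, colon and ileum libraries. Rbp4 and Clu stand highest in the caecum, Afp is low in the ileum, and Apob drops to 0.0537 RPKM in the colon.

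Transcription factors of absorptive epithelium gave a mixed picture beside the receptor genes. Of 13, 1 was 2-fold or more higher and 3 lower in caecum than in ileum, beside 4.57% and 2.55% of all genes. In caecum against colon, 1 was higher and 2 lower, beside 4.97% and 2.78%. In colon against ileum, 0 were higher and 2 lower, beside 4.05% and 4.20%. The list was chosen with earlier results of these data known, so its counts are not read against those shares. Hnf4g, a nuclear receptor of enterocytes, had 2.27, 1.60 and 5.73 RPKM in the caecum, colon and ileum, the order that Hnf4a did not share at 9.81, 17.6 and 16.1 RPKM. Cdx2, the intestinal homeobox gene, had 18.8, 9.87 and 17.5 RPKM, and Prdm1, a repressor known from the intestine before weaning, 8.66, 4.96 and 8.03 RPKM. Both were lowest in the colon, as Cubn was, but stayed within 2-fold. Gata4, at 5, 58 and 703 counts, and Cdx1 were the other factors lower in caecum than in ileum, with Cdx1 at 0.306, 1.70 and 2.01 RPKM. The factor higher in the caecum than the colon was Maf, at 2.55-fold, named after its values were seen.

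The genes with a profile nearest to each member were found by the root mean square difference of the 3 log2 folds, over 3 libraries, among 12295 genes. For Cubn they were Nalcn, a sodium leak channel, at 0.048, then Chodl, Thrb, a thyroid hormone receptor, Arpp21 and Nlgn1, a synaptic adhesion gene, at 0.22. Nalcn had 402, 46 and 360 counts in the caecum, colon and ileum. For Amn they were S100g, an intestinal calcium-binding protein, at 0.046, then B3galt5, Naip2, Tnmd and Pdlim3 at 0.19. S100g had 1.70, 2.09 and 6.32 RPKM. Nearest to Lrp2 were Ptpn6, a phosphatase, at 0.021, then Klf4, an epithelial zinc finger factor, Zmat4, Gdnf, a neurotrophic factor, and Pbx3. Dab2 and Lrpap1 are nearly flat, as many genes are, and their nearest genes, led by Gucy1a2 and Sec62, lay within 0.0079 and 0.0050.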

How the data were processed

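Polyadenylated RNA of 3 gut segments, 1 sample each, was sequenced as paired reads of 100 bp, per the labels. Bowtie 0.12.7, DESeq and mm9 are listed, with no roles, in the submitters' processing notes. Per the file headers, the authors deposited expected counts, not all whole numbers, and RPKM, which they scaled to gene length and depth. The counting program, annotation release and use of strand are not given in the sources used here. The 2 count columns of a segment were averaged and rounded, and RPKM averaged. Starts in the table count from 0 and were raised by 1.

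Counts were scaled by TMM (edgeR 4.0.16, R 4.3.3). Each fold has an exact 95% interval (Clopper-Pearson), from the binomial share of 1 library in the summed counts of both. The code was tested on data simulated with counting error alone, which says nothing of variation between samples. A gene needed 20 counts in the higher library, and 0 was set to 3 counts. Alternatives were DESeq2 1.42.0 size factors, library totals, upper quartiles, single columns, RPKM ratios and other minimums and thresholds.

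The members and 15 gene lists were chosen with earlier results of these data known. The lists hold 228 entries for 218 symbols, of which 217 were matched, all but Rhox5. Genes named from a list were those among its 3 of highest mean RPKM or its 3 with the interval bound farthest from 1, besides markers at or near 0 and genes said to be named after their values were seen. Pattern neighbours needed 100 counts and leave out predicted, Riken, ribosomal, histone and mitochondrial genes. Promoters were found for 5 of 5 members. Protein sequences were not analysed here. Some genes of the lists are not reported here.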

Additional observations from a re-analysis of the deposited data

How the results depend on the processing

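Each of the 15 member folds was recomputed under 6 alternatives, namely DESeq2 size factors, library totals, upper quartiles, each count column alone and the ratio of the authors' RPKM. All 90 values lay within the counting interval of the fold as reported, and none differed from it by more than 1.06-fold. Only Lrp2 for the colon over the ileum crossed the 2-fold line, at 1.99-fold with the second column. No paired analysis was possible because each segment has 1 sample. Depth limits Amn most, with 27 to 84 counts.

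The numbers of genes 2-fold or more higher and lower moved with the threshold, as its construction implies. With the higher count before the lower, and the comparisons in the order caecum over ileum, then caecum over colon, then colon over ileum, they were 434, 271, 553, 247, 339 and 464 with a minimum of 100 counts, and 1391, 896, 1354, 1184, 1367 and 1193 with none. At a fold of 1.5 they were 1647, 1062, 1672, 1081, 1418 and 1366, and with intervals wholly beyond 2-fold 389, 234, 499, 237, 348 and 415. With a minimum of 100 counts the median log2 fold of the ligand list was 0.85 for the caecum over the colon, and that of the nephric list was 0.065 for the caecum over the ileum and -0.0019 for the caecum over the colon, where fewer genes are tested.

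Scaled to Epcam in place of the summed epithelial list, the folds, in the same order of comparisons, were 1.17, 6.45 and 0.181 for Cubn, 1.61, 0.565 and 2.85 for Lrp2, 1.29, 0.748 and 1.73 for Dab2 and 1.41, 1.02 and 1.38 for Lrpap1. The fold of Amn for the colon over the ileum was 0.439. With the geometric mean of the list, Dab2 was at 0.935 for the caecum over the ileum and 1.03 for the colon over the ileum.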
